A study of Homo sapiens with 10 samples.

Results

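The genes described here encode the receptor, kinase and transcription factor steps of interferon signalling: IFNAR1, JAK1, STAT2, STAT3, IRF9, IRF1, IRF2, IRF3 and IRF7. They were chosen as a list of symbols, matched to the Ensembl identifiers of the count tables, and make up 9 of the 58884 genes counted. RNA-seq was performed on HCT116 cells, a human colorectal cancer line of wild-type genotype, and on DNMT1 KO cells, a published derivative in which DNMT1, the maintenance DNA methyltransferase, is disrupted. The derivative is a single line that still makes a low level of truncated DNMT1 protein, so it is a hypomorph. Both lines were grown in McCoy's 5A medium with foetal calf serum and penicillin-streptomycin, with no treatment that differed between them named, and each library is described as a separate culture. There were 6 HCT116 libraries (replicates 1, 2, 3, 7, 8 and 9) and 4 DNMT1 KO libraries (replicates 1 to 4). The labels place replicate 1 of each line in batch 1 and replicates 2 and 3 of each line in batch 2, whereas DNMT1 KO replicate 4 is alone in batch 3 and HCT116 replicates 7, 8 and 9 form batch 4.

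Type I interferon binds a receptor made of IFNAR1 and IFNAR2, whose bound kinases JAK1 and TYK2 phosphorylate STAT proteins, STAT2 among them. STAT2 joins IRF9 and a further STAT to form ISGF3, a complex that binds interferon-stimulated response elements (ISRE) in the promoters of target genes, while STAT homodimers bind gamma-activated sequences (GAS). IRF3 and IRF7 act earlier, switching on interferon genes once nucleic acid is sensed, and several of these factors are themselves interferon-inducible.

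Total counts ranged from 35418732 to 85991812 in HCT116 and from 26700853 to 55732013 in DNMT1 KO. DNMT1, which checks the labels, stood at 153 ± 64.2 CPM (counts scaled to library size, with trimmed mean of M values, TMM, factors) in the 6 HCT116 libraries and 19.5 ± 3.68 CPM in the 4 DNMT1 KO libraries (mean ± SD). The log2 fold change was -2.97 (SE 0.33), with an adjusted p of 1.74e-05 by edgeR's quasi-likelihood test with Benjamini-Hochberg adjustment. Of the 8 epithelial markers examined, EPCAM, CDH1, KRT8, KRT18 and CLDN4 were called lower in DNMT1 KO cells, beside 6.49% of all tested genes. VIL1 rose from a mean of 0.00928 CPM in HCT116 (4 counts in all) to 0.609 CPM in DNMT1 KO, low in both. CDX2 had a log2 fold change of 0.23 (edgeR adjusted p = 0.601) and was not called. KRT19, an epithelial keratin, averaged 1021 CPM in HCT116 and 488 CPM in DNMT1 KO. Its log2 fold change was -1.06 (edgeR adjusted p = 0.0763) and it was not called. With batch as a term it was -1.60 (edgeR adjusted p = 0.00626), a call lower. Summed leukocyte marker levels were 0.341 to 1.18 CPM in HCT116 and 1.07 to 1.86 CPM in DNMT1 KO over 6 markers, and PTPRC and CD3E were near or at 0 in both. Summed endothelial markers stood at 0.290 to 1.58 CPM in HCT116 and 4.46 to 6.01 CPM in DNMT1 KO, fibroblast markers at 6.47 to 19.8 and 13.5 to 20.8 CPM. PECAM1, VWF, COL3A1 and PDGFRB were called higher, beside 7.42% of all tested genes. COL1A1, the most abundant fibroblast marker in HCT116, averaged 12.5 CPM in HCT116 and 6.72 CPM in DNMT1 KO, a log2 fold change of -0.90 that was not called, and without DNMT1 KO replicate 3 it was -1.54 with an edgeR adjusted p of 0.0143. The part of these marker differences in the results on interferon genes was not tested.

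Promoter windows were read from RefSeq (GRCh38.p14), each covering 250 bases before and 50 bases after a transcription start, and they were available for 6 of the 9 genes in 9 windows. IRF2, IRF3 and IRF7 are named only. The ISRE letters, GAAA, any 2 bases and GAAA again, searched on both strands, were in none of the 6 genes' windows and in 3.57% of all 35116 windows. The GAS letters TTCNNNGAA, likewise on both strands, were in the windows of IRF1 and IRF9 and in 7.66% of all windows. Among 29 interferon-stimulated target genes with a window, 23 (79.3%) held the ISRE letters and 8 (27.6%) the GAS letters. These are shares of genes with a match in any of their windows, unlike the shares of single windows given for all windows. A match describes letters in the sequence and not a bound site. The GAS matches of IRF1 and IRF9 are shown because these are the only matches among the signalling genes, with 1 ISRE match each of the target genes BST2 and IFITM1. BST2 and IFITM1 held 2 ISRE matches each and also the GAS letters, at 2 places and 1 place. Capitals mark the matched letters, each stretch is written 5′ to 3′ on the gene's strand, and the matches begin 124, 63, 130 and 6 bases before the RefSeq start, in the order printed. For IRF9 the annotation of the count tables starts the gene at 24161053, so there the match lies inside the gene as counted.
IRF1, GAS, chr5:132490879-132490907, minus strand: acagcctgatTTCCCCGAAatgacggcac
IRF9, GAS, chr14:24161192-24161220, plus strand: accacgtgatTTCTGGGAAaaggccctcc
BST2, ISRE, chr19:17405741-17405770, minus strand: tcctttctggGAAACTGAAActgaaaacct
IFITM1, ISRE, chr11:314024-314053, plus strand: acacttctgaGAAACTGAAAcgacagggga

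None of the interferon signalling genes was called between the lines. Of the 9 genes, 8 passed the low-count filter, and 0 of these 8 had an adjusted p under 0.05, while 1 (STAT3) had an unadjusted p under 0.05. By DESeq2, STAT3 reached an adjusted p of 0.0441 and 0 genes met the call rule. For a call, the adjusted p had to be under 0.05 with a fold change over 1 in size on the log2 scale. By that rule 2682 of 19279 tested genes were called (13.9%), 1431 higher (7.42%) and 1251 lower (6.49%). An adjusted p under 0.05 alone was reached by 16.1% of tested genes, and an unadjusted p under 0.05 by 27.6%. The libraries of both lines overlapped for all 8 genes, against 15.2% of tested genes whose groups did not overlap. The estimate was positive for 6 genes and negative for 2, and the median log2 fold change was 0.06, beside -0.07 over all tested genes. In bulk RNA, fewer cells expressing a gene and less of its RNA per cell cannot be told apart.

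**Figure D1:**
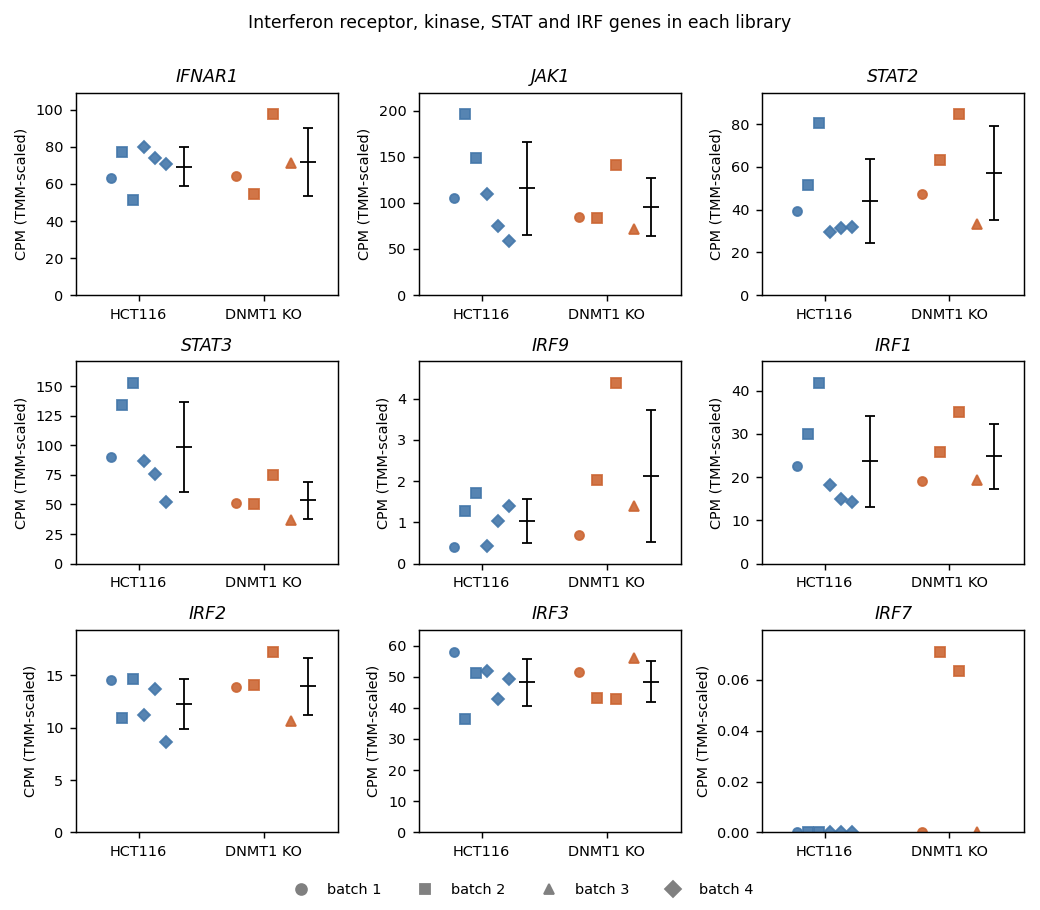
Level of each gene in CPM (TMM-scaled, linear axis from 0) for the 6 HCT116 and 4 DNMT1 KO libraries, with the batch shown by the marker and the mean ± SD as a bar beside each group (no bar for IRF7). Groups overlap in every panel with tested values, 3 of the 4 DNMT1 KO libraries lie below every HCT116 library for STAT3, and IRF7 has counts in DNMT1 KO replicates 2 and 3 alone.

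IFNAR1, the signalling receptor chain (chromosome 21, hg38 positions 33324429 to 33359864, plus strand), had a lowest, median and highest level of 51.2, 72.3 and 80.1 CPM in HCT116. DNMT1 KO replicates 1 to 4 held 64.5, 54.5, 97.6 and 71.1 CPM. Replicate 3 was thus above all HCT116 libraries and the other three lay within their range. The log2 fold change was 0.05 (SE 0.22, 95% interval -0.42 to 0.53, edgeR adjusted p = 0.910), so a change in either direction of more than 0.53 on the log2 scale lay outside the interval. Without DNMT1 KO replicate 3 the value was -0.10.

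JAK1, the kinase bound to IFNAR2 (chromosome 1, 64833229 to 64966549, minus strand), reached 59.0, 107 and 196 CPM as the lowest, median and highest HCT116 value. In DNMT1 KO it stood at 85.1, 84.0, 141 and 71.2 CPM in replicates 1 to 4, all within the HCT116 range. JAK1 differed by a log2 fold change of -0.28 (SE 0.33, 95% interval -0.97 to 0.42, edgeR adjusted p = 0.633). The HCT116 values spanned 3.32-fold, and batches 1 and 2 averaged 150 ± 45.6 CPM (SD, n = 3) and batch 4 averaged 81.4 ± 26.0 CPM (SD, n = 3).

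STAT2, the ISGF3 subunit that carries the transactivation domain (chromosome 12, 56341597 to 56360167, minus strand), had HCT116 values of 29.4, 35.6 and 80.5 CPM as lowest, median and highest. DNMT1 KO replicates 1 to 4 had 47.2, 63.3, 84.5 and 33.3 CPM. One DNMT1 KO library exceeded every HCT116 library and none lay below them all. A log2 fold change of 0.38 was fitted (SE 0.33, 95% interval -0.32 to 1.07, edgeR adjusted p = 0.505). The size of this difference followed the HCT116 libraries used: the DNMT1 KO mean log2 CPM was 0.80 above batch 4 and -0.02 from batches 1 and 2.

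STAT3, a STAT activated by interleukin-6 family cytokines and also by interferon (chromosome 17, 42313324 to 42388568, minus strand), was the gene of the list with the smallest p. HCT116 values were 51.7, 88.6 and 153 CPM as lowest, median and highest, and DNMT1 KO replicates 1 to 4 held 51.2, 50.7, 75.1 and 36.9 CPM. Replicates 1, 2 and 4 lay below every HCT116 library and replicate 3 lay below 5 of the 6. Means were 98.5 ± 37.6 CPM for the 6 HCT116 libraries and 53.5 ± 15.9 CPM for the 4 DNMT1 KO libraries (± SD), 1.84-fold higher in HCT116 by the fitted value. The log2 fold change was -0.88 (SE 0.31, 95% interval -1.54 to -0.22), with an edgeR adjusted p of 0.0694 that missed the threshold. A 2-sided exact permutation test compared mean log2 CPM over the 210 ways to assign 4 of the 10 libraries. It gave an unadjusted p of 0.0190, where 0.00952 is the smallest value the design allows. For the other tested signalling genes the same permutation test gave p from 0.200 (IRF9) to 0.971 (IRF3). The test moves libraries freely between batches, although batches 3 and 4 each hold a single line. Within batch 1 the log2 ratio of the single libraries was -0.82, and the fit within batch 2 gave -1.18. With batch as a term, which leaves the comparison to batches 1 and 2, the log2 fold change was -1.06 with an edgeR adjusted p of 0.0148 and STAT3 was called, beside 16.2% of tested genes called in that fit (7.74% lower). HCT116 batch 4 itself had less STAT3 RNA than HCT116 batches 1 and 2 (71.5 ± 18.0 against 126 ± 31.9 CPM, SD, n = 3 each), a log2 difference of -0.84 with an edgeR adjusted p of 0.123. DNMT1 KO minus HCT116 batch 4 was -0.43 on the log2 scale, and minus batches 1 and 2 it was -1.24.

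**Figure D2:**
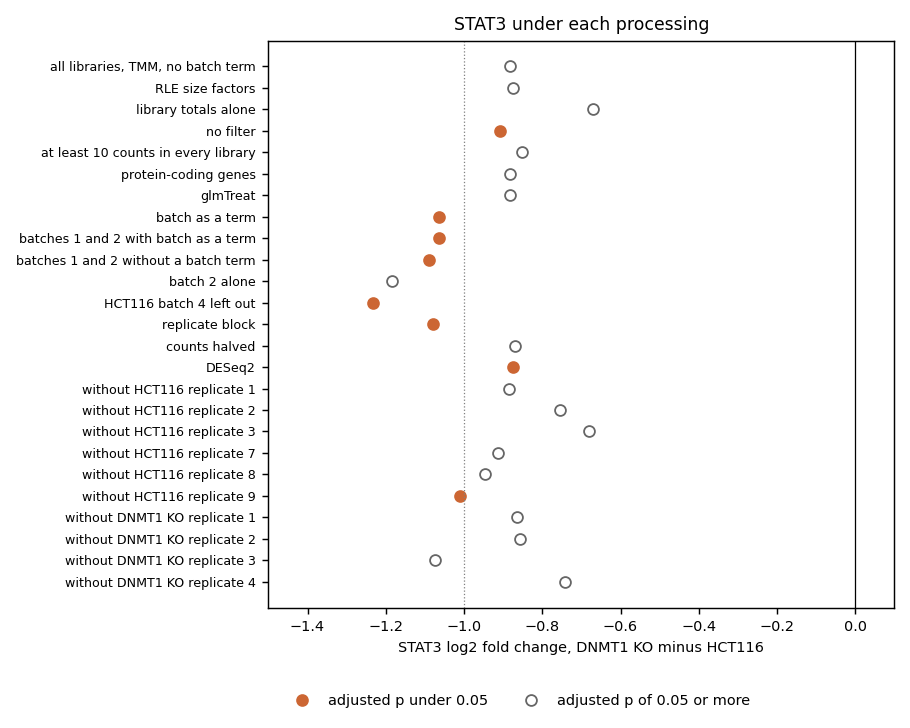
STAT3 log2 fold change (DNMT1 KO minus HCT116, linear axis) for the reported fit and each of 24 processing alternatives, filled where the adjusted p was under 0.05. All 25 values are below 0, from -1.23 without HCT116 batch 4 to -0.67 with library totals alone, and 8 of the 24 alternatives pass the threshold.

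IRF9, the DNA-binding subunit of ISGF3 (chromosome 14, 24161053 to 24166565, plus strand), was low, with 0.402, 1.16 and 1.71 CPM as its lowest, median and highest HCT116 value. DNMT1 KO replicates 1 to 4 held 0.707, 2.03, 4.38 and 1.39 CPM, so replicates 2 and 3 exceeded all HCT116 libraries. Its log2 fold change was the largest in size among the 8 tested genes, 1.04 (SE 0.53, 95% interval -0.09 to 2.16), with an edgeR adjusted p of 0.222. Without DNMT1 KO replicate 3 the value was 0.42. Of the exonic bases annotated to IRF9, 45.5% are shared on the same strand with ENSG00000259529, and featureCounts by default assigns reads over shared bases to neither gene, so the printed level is that of the unshared bases. ENSG00000259529 was at 0.0535 to 0.871 CPM in HCT116 and 0.0317 to 0.417 CPM in DNMT1 KO.

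IRF1, an activator induced by interferon-gamma (chromosome 5, 132481609 to 132490777, minus strand), had a lowest, median and highest HCT116 level of 14.3, 20.4 and 41.7 CPM. In DNMT1 KO the values were 19.1, 25.8, 35.1 and 19.4 CPM in replicates 1 to 4, all inside the HCT116 range. Between the lines the log2 fold change was 0.08 (SE 0.32, 95% interval -0.61 to 0.76, edgeR adjusted p = 0.909). Within HCT116, IRF1 was lower in batch 4 than in batches 1 and 2 (15.8 ± 2.00 against 31.4 ± 9.64 CPM, SD, n = 3 each), a log2 difference of -1.01 with an edgeR adjusted p of 0.0683. Against HCT116 batches 1 and 2 the DNMT1 KO log2 difference was -0.34, and against batch 4 it was 0.61. On the opposite strand, IRF1-AS1 and a further annotated gene overlap 22.1% of its exonic bases.

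The 250 bases before the IRF1 start are shown because they hold the GAS letters. The whole window had 36 CpG, against a median of 14 over all windows. They lie at chr5:132490774-132491023 on the minus strand (GRCh38.p14), with the match in capitals.
IRF1: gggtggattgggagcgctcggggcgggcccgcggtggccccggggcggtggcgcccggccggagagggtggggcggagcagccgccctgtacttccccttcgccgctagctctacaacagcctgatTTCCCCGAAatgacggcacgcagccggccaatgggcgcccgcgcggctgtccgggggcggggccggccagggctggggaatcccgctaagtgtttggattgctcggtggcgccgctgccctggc

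IRF2, which competes with IRF1 for the same sites and mainly represses (chromosome 4, 184387729 to 184474550, minus strand), had HCT116 values of 8.64, 12.4 and 14.6 CPM as lowest, median and highest. DNMT1 KO replicates 1 to 4 held 13.9, 14.1, 17.3 and 10.6 CPM, with replicate 3 above all HCT116 libraries. On the log2 scale the lines differed by 0.19 (SE 0.24, 95% interval -0.33 to 0.70, edgeR adjusted p = 0.673). The log2 ratio of IRF1 to IRF2 counts within a library, which no size factor can move, was 0.86 ± 0.53 in HCT116 (SD, n = 6) and 0.81 ± 0.24 in DNMT1 KO (SD, n = 4). This ratio averaged 1.20 in HCT116 batches 1 and 2 and 0.52 in batch 4. For IRF9 against STAT2, both in ISGF3, it was -5.51 ± 0.77 in HCT116 (SD, n = 6) and -4.97 ± 0.78 in DNMT1 KO (SD, n = 4). Both differences between the lines were smaller than the SD within a line, but the IRF9 to STAT2 difference of 0.54 was 0.31 without DNMT1 KO replicate 3 and 0.90 without DNMT1 KO replicate 1.

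IRF3, the constitutive factor activated by nucleic acid sensors (chromosome 19, 49659569 to 49665875, minus strand), had the difference closest to 0 among the 8 tested genes. HCT116 values were 36.4, 50.2 and 58.0 CPM as lowest, median and highest, and DNMT1 KO replicates 1 to 4 held 51.6, 43.2, 42.9 and 56.0 CPM, all inside that range. The fitted log2 fold change was 0.0061 (SE 0.20, 95% interval -0.43 to 0.44, edgeR adjusted p = 0.988). BCL2L12, on the opposite strand, overlaps 19.3% of its exonic bases.

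IRF7, which amplifies interferon production and is itself interferon-inducible (chromosome 11, 612553 to 615999, minus strand), had 0 counts in all 6 HCT116 libraries. DNMT1 KO replicates 1 to 4 had 0, 4, 4 and 0 counts, so the counts came from the batch 2 libraries. The 8 counts pooled over DNMT1 KO equal 0.0426 CPM (exact 95% Poisson interval 0.0184 to 0.0840 CPM). The floor of 3 counts over all HCT116 libraries was 0.00892 CPM. Interval and floor treat each count as independent, and counts from 1 to 10 were mostly even in replicates 2 and 3 (66.8% and 64.8%), as when both reads of a pair are counted. The 8 counts would then be 4 read pairs, and the interval is too narrow in that case. IRF7 did not pass the low-count filter, and with no filter its edgeR adjusted p was 0.0767, which missed the threshold.

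Per kilobase of unshared exon, the order of levels in HCT116 (CPM per kilobase, mean ± SD, n = 6) was JAK1 18.2 ± 7.89, IRF3 15.8 ± 2.47, STAT3 11.2 ± 4.27, IFNAR1 10.1 ± 1.55, STAT2 7.10 ± 3.17, IRF2 4.00 ± 0.78 and IRF1 3.90 ± 1.74, followed by IRF9 at 0.503 ± 0.259 and IRF7 at 0. In DNMT1 KO (n = 4) the order was IRF3 15.8, JAK1 15.0, IFNAR1 10.5, STAT2 9.21, STAT3 6.07, IRF2 4.54, IRF1 4.10, IRF9 1.03 and IRF7 0.0128. STAT3 moved from the third to the fifth place. In both lines the library ranges of neighbours overlapped, other than at the steps down to IRF9 and to IRF7.

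Libraries of HCT116 itself differed between batches. HCT116 batch 4 was lower than HCT116 batches 1 and 2 for 7 of the 8 tested genes, with an unadjusted edgeR p under 0.05 for STAT2, STAT3, IRF1 and JAK1 and an adjusted p under 0.05 for 0. In that comparison 26.1% of 18656 tested genes had an unadjusted p under 0.05, and 8.03% were called. For STAT2 the log2 difference was -0.91 and for JAK1 it was -0.90, with edgeR adjusted p of 0.0972 and 0.113. The batch difference exceeded the difference between the lines for 6 of the 8 genes. For IRF2, IRF3 and IFNAR1 both differences were smaller than their SE. How often all tested genes were lower in batch 4, or had the larger batch difference, was not computed. Batch 4 holds HCT116 alone and batch 3 one DNMT1 KO library, so for these libraries batch and line cannot be told apart. DNMT1 KO replicate 3 was the highest DNMT1 KO library for 7 of the 8 genes, IRF3 being the exception, and the share over all tested genes was not computed.

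**Figure D3:**
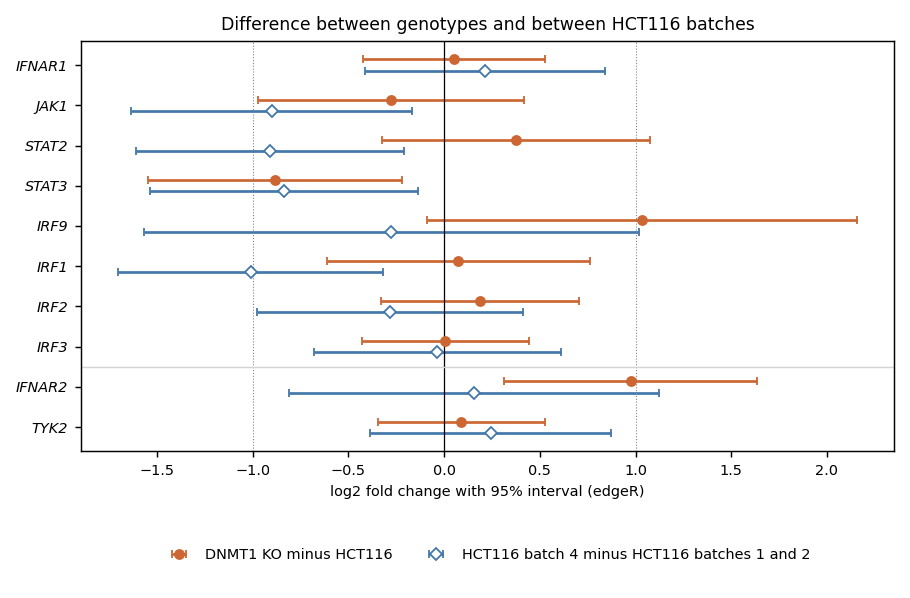
Log2 fold change with 95% interval (edgeR, linear axis) for DNMT1 KO minus HCT116 (filled circles) and for HCT116 batch 4 minus HCT116 batches 1 and 2 (open diamonds), for 8 interferon signalling genes and, under the grey line, IFNAR2 and TYK2. Both intervals lie below 0 for STAT3 (-0.88 and -0.84), whereas for STAT2 the values point opposite ways (0.38 and -0.91).

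Of the direct partners of these genes at the receptor, IFNAR2 and TYK2 are given here. IFNAR2, the second receptor chain, averaged 1.42 ± 0.26 CPM over the 6 HCT116 libraries (± SD) and held 2.17, 2.59, 2.57 and 3.89 CPM in DNMT1 KO, with groups that did not overlap. The difference on the log2 scale was 0.97 (SE 0.31, adjusted p = 0.0442 by edgeR), short of the fold rule for a call, and the adjusted p stayed under 0.05 in 7 of 24 processing alternatives. Of its exonic bases, 83.2% are shared with other genes. TYK2, the kinase bound to IFNAR1, had 39.1 ± 6.11 CPM over the 6 HCT116 libraries and 41.6 ± 4.54 CPM over the 4 DNMT1 KO libraries (± SD), a log2 fold change of 0.09 (edgeR adjusted p = 0.817).

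Interferon ligand genes of types I, II and III had few or no counts. All 21, of which IFNG and the IFNL genes act through other receptors than IFNAR1 and IFNAR2, stayed below 1 CPM in every library. The highest value was 0.465 CPM, 13 genes had no count, and none passed the filter of the reported fit. IFNB1, the fibroblast interferon, averaged 0.0432 CPM in HCT116 (0 to 0.214, 10 counts) and 0.117 CPM in DNMT1 KO (0 to 0.254, 27 counts). IFNE, an epithelial interferon, averaged 0.248 CPM in HCT116 (86 counts) and 0.0168 CPM in DNMT1 KO (4 counts). Without DNMT1 KO replicate 3, IFNE passed the filter, with a log2 fold change of -3.82 (edgeR adjusted p = 0.0251). HCT116 and DNMT1 KO counts were 7 and 25 for IFNL1, 2 and 17 for IFNL2, and 0 and 11 for IFNL3. They were 0 and 3 for IFNK and 2 and 0 for IFNA21 and for IFNW1. All were named after their counts were seen.

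Of the 9 other receptor chains and kinases, all tested, 0 were called, beside 13.9% of all tested genes, and the median log2 fold change was 0.09. Of 7 other STAT and IRF genes, 5 were tested, and 1 was called higher, STAT5A, from 0.0203 to 0.335 CPM, beside 7.42% of all tested genes called higher. STAT5A is outside the naming rule and was picked after its values were seen. IRF5, with a log2 fold change of -0.61 and an edgeR adjusted p of 0.159, was likewise named after its values were seen. The median of this list was -0.27.

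Of the 16 negative regulators, all tested, 2 were called higher and 1 lower, with a median of -0.10, beside 13.9% of all tested genes called (7.42% higher and 6.49% lower), so the share called was close to that background. SOCS3, a STAT3 target that inhibits JAK kinases, fell from 46.9 ± 13.5 CPM in HCT116 to 20.5 ± 6.02 CPM in DNMT1 KO (mean ± SD of 6 and 4 libraries), a log2 fold change of -1.19 (SE 0.28, edgeR adjusted p = 0.00814). USP18, an interferon-induced inhibitor that acts at IFNAR2, rose from 1.91 ± 0.35 to 6.07 ± 2.65 CPM (log2 fold change 1.67, edgeR adjusted p = 0.00199), although reads of its close copy USP41 may be shared with it. IRF2BPL, a relative of the IRF2 corepressors, rose by 1.07 on the log2 scale (edgeR adjusted p = 0.0393), a call lost without DNMT1 KO replicate 3 and with batch as a term.

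Downstream, 28 of 34 interferon-stimulated target genes were tested, 17 were called higher and 0 lower, beside 7.42% of all tested genes called higher. The estimate was positive in 28 of 28, with a median log2 fold change of 2.06. XAF1, IFI44L and OAS2 had 0, 2 and 15 counts over the HCT116 libraries. They passed the filter through DNMT1 KO, so their sign was fixed in advance. With at least 10 counts required in every library, 11 target genes were called higher. The list was chosen with earlier results of these data known, so these counts are a description and not a test. BST2, which tethers budding virus, rose from 3.23 ± 2.66 CPM in HCT116 to 222 ± 32.8 CPM in DNMT1 KO (mean ± SD of 6 and 4 libraries), a log2 fold change of 6.12 (SE 0.57). OAS2, a sensor of double-stranded RNA, rose by 7.62 on the log2 scale, and by 6.46 without DNMT1 KO replicate 3. Its HCT116 level was low (0.0442 ± 0.0528 CPM, SD, 15 counts in all). DNMT1 KO replicates 1 to 4 held 1.72, 8.83, 24.5 and 1.29 CPM of OAS2. IFITM1, a membrane protein that limits viral entry, rose by 5.62, from 3.54 ± 3.39 to 172 ± 121 CPM (± SD). Other genes share 37.5% of the exonic bases of IFITM1, and it has close relatives with which short reads may be shared. DNMT1 KO replicate 3 was the highest DNMT1 KO library for 26 of the 28 genes, and the share over all tested genes was not computed. Without DNMT1 KO replicate 3, 13 of the 28 were called higher. The log2 fold change then went from 1.45 to 0.56 for ISG15 and from 1.26 to -0.02 for CMPK2. Both were named after their values were seen. For BST2 it was 6.13 without that library. With batch as a term 18 were called higher.

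**Figure D4:**
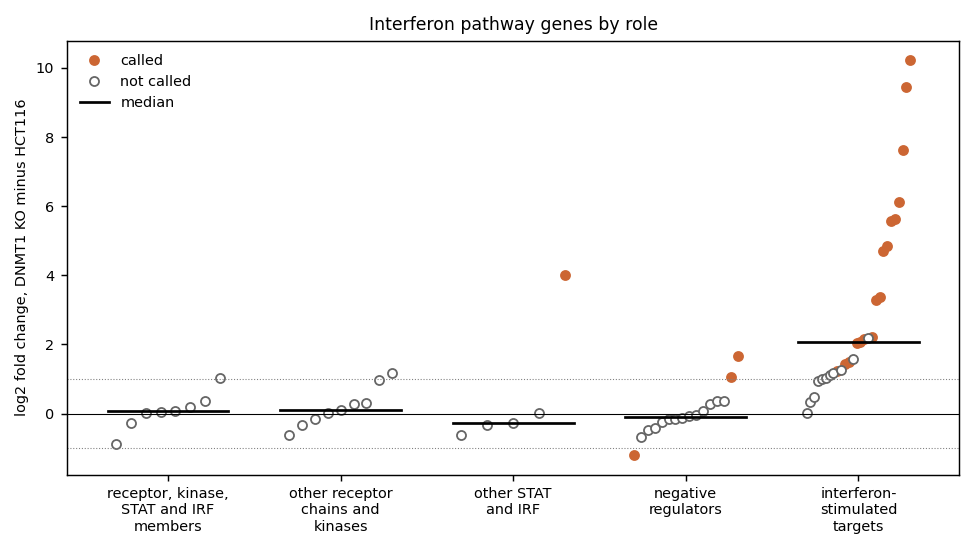
Log2 fold change (DNMT1 KO minus HCT116, linear axis) of each tested gene, grouped by role, filled where called and with the median as a bar. The signalling genes and the other receptor chains and kinases hold no filled point (medians 0.06 and 0.09), whereas 17 of 28 target genes are filled (median 2.06).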

How the data were processed

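RNA-seq libraries were made with a stranded mRNA kit and sequenced as paired-end reads. Per the study's methods and processing notes, the authors checked reads with FastQC (0.11.4), trimmed them with Trim Galore (0.4.1), aligned them to hg38 (bowtie2, an aligner without spliced alignment), removed low mapping qualities with SAMtools and counted exonic reads per gene (featureCounts). No setting for strand is given among those listed. The authors deposited 1 table of raw counts per library, and 64.4 to 70.0% of counts from 1 to 10 were even in 9 libraries and 39.9% in DNMT1 KO replicate 4. A further 3 tables hold libraries that the labels used here do not list, and they were not used.

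Counts were filtered by filterByExpr defaults, scaled by TMM and tested with edgeR (4.0.16, R 4.3.3) by glmQLFit and glmQLFTest, with line as the sole term and Benjamini-Hochberg adjustment over 19279 genes. The call rule was an adjusted p under 0.05 and an absolute log2 fold change over 1. Symbols came from a reference list of gene names, and gene types came from GENCODE release 44 (58472 of 58884 identifiers matched). Shared exonic bases were computed from the exons given in the count tables. Exact permutation tests went through every split of the libraries, the Poisson interval of IRF7 used scipy (1.17.1), and DESeq2 (1.42.0) was an alternative. The edgeR fit was also run on counts simulated without batch differences, which cannot show how it behaves under the batch differences of these libraries. Total counts per library limit precision. The Poisson interval and the floor of IRF7 cover counting error alone. Intervals on log2 fold changes and p-values measure the spread between these cultures of 1 line each. Alternatives changed scaling, filter, batch handling, test and the libraries used.

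The members and lists were chosen with earlier results of these data known. Named genes were the 9 signalling genes, DNMT1, IFNAR2 and TYK2, and up to 3 called genes per list with the smallest adjusted p and a mean of at least 1 CPM. For each called signalling gene the 3 most correlated genes were to be named, and with none called none is given. Some genes of the lists are not reported here.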

Additional observations from a re-analysis of the deposited data

How the results depend on the processing

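The log2 fold change of STAT3 was negative under all 24 alternatives, with an edgeR or DESeq2 adjusted p under 0.05 in 8 and a call in 6. The alternatives reuse the same libraries, and glmTreat keeps the estimate of the reported fit, so they are not independent of each other. It was -0.91 with no filter, -1.06 with batch as a term or for batches 1 and 2 with that term, -1.09 for batches 1 and 2 without it, -1.23 without HCT116 batch 4 and -0.88 by DESeq2 (adjusted p = 0.0441). Leaving out 1 library in turn gave -1.07 to -0.68, with -1.01 (adjusted p = 0.0275) without HCT116 replicate 9. The number of signalling genes called was 1 (STAT3) in the batch-term fits, for batches 1 and 2, without HCT116 batch 4 and in the replicate block fit, and 0 to 1 with a library left out. With a replicate block, STAT3 was at -1.08 (edgeR adjusted p = 0.0324), IRF1 at -0.23 and IRF3 at -0.057. Same-numbered deviations from the line means correlated at 0.46, -0.20 and 0.37 for replicates 1, 2 and 3. Differently numbered libraries were not compared, so these values cannot settle whether the numbers pair the libraries.

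Some values changed sign. STAT2, at 0.38 with all libraries, was -0.0026 without HCT116 batch 4. IRF1 was -0.24 with batch as a term and for batches 1 and 2 with that term, -0.23 for those batches without it and for batch 2 alone, and -0.34 without HCT116 batch 4. IRF3 was -0.028 with no filter, -0.071 with batch as a term, -0.070 and -0.078 for batches 1 and 2 with and without it, -0.018 for batch 2 alone and -0.0038 without batch 4. With a library left out, STAT2 ranged from 0.14 to 0.67, IRF1 from -0.12 to 0.35, IRF3 from -0.074 to 0.095, IFNAR1 from -0.10 to 0.16, IRF9 from 0.42 to 1.31 and JAK1 from -0.51 to -0.042. The cause was not tested. IRF1 was negative without HCT116 replicate 8 (-0.025), HCT116 replicate 9 (-0.032) or DNMT1 KO replicate 3 (-0.12). IRF3 was negative without HCT116 replicate 2 (-0.034) or 8 (-0.025) or DNMT1 KO replicate 1 (-0.0062) or 4 (-0.074). The log2 ratio of IRF1 to IRF2 differed between the lines by 0.066, 0.079 and 0.065 without HCT116 replicate 2, HCT116 replicate 3 and DNMT1 KO replicate 1.

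Target genes called higher numbered 11 when every library had to reach 10 counts, with glmTreat and without HCT116 batch 4, and 13 to 21 with a library left out. Genes called higher and lower numbered 734 and 766 under that count minimum, 744 and 623 with glmTreat and 815 and 798 in batch 2 alone, and 1214 to 1587 and 987 to 1250 with a library left out. With library totals alone, 66.3% of calls were higher in place of 53.4%, and the median of all genes was 0.14 in place of -0.07, beside 0.28 in place of 0.06 for the signalling genes. IRF7, at 8 counts in all, is limited by depth.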
